A study of Homo sapiens with 12 samples.

Results

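VEGFA, VEGFB, VEGFC, PGF, ADM, ANGPTL4, CXCR4, EDN1, NRP1 and NRP2 form a group of secreted vascular factors and their receptors that is often followed when cells sense low oxygen. All 10 were found among the 26475 gene symbols of the deposited counts. They were chosen by name as a functional group, at a time when the fold changes of these libraries with BAY-850 were known, and CXCR4, ANGPTL4 and VEGFA were among the increases known then. Their fold changes with BAY-850 are therefore a description. RNA was sequenced from PA-1, a human cell line from an ovarian teratocarcinoma, and SK-OV-3, a human cell line from an ovarian adenocarcinoma. Each line was given the vehicle DMSO or 5 µM BAY-850, an inhibitor of the bromodomain of ATAD2, a chromatin protein, for 48 h. Each of the 4 groups had 3 biological replicates, 12 libraries in all. PA-1 cells grew in DMEM and SK-OV-3 cells in RPMI, both with serum, so a difference between the lines and one between the media cannot be told apart. Each line is a single established line, and oxygen was not varied in these groups.

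VEGFA is the main growth factor of blood vessels, and it acts through the receptors FLT1 and KDR. VEGFB and PGF bind FLT1, VEGFC binds FLT4 and KDR, and the neuropilins NRP1 and NRP2 serve as co-receptors. In low oxygen, hypoxia-inducible factors (HIF) escape destruction and switch on VEGFA, the vasodilator peptide adrenomedullin (ADM), the lipase inhibitor ANGPTL4 and the chemokine receptor CXCR4. Endothelin-1, made from EDN1, is a vasoconstrictor peptide that can also be driven by HIF and by growth factor signals. NRP1, NRP2 and CXCR4 are membrane receptors rather than secreted factors.

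The libraries held 34544505 to 51840233 counts each. BAY-850 replicate 3 of SK-OV-3 stood apart, with the highest total and with 15629 genes that had a count, against 17425 to 18414 in the other libraries, and the log2 fold changes of SK-OV-3 are also given without it. Levels are in CPM, the count of a gene scaled to the library total and by the TMM factors explained below. The summed level of 7 pluripotency markers was 1436 to 1641 CPM in PA-1 with DMSO. In SK-OV-3 with DMSO it was 36.3 to 40.8 CPM, and 2 of the 7 were at 0. The sum of 6 markers chosen for SK-OV-3 was 922 to 980 CPM in PA-1 and 4119 to 4424 CPM in SK-OV-3. The latter sum was carried by the receptor kinase ERBB2 (61.3 CPM in PA-1 and 2417 CPM in SK-OV-3) with KRT7, KRT19 and EPCAM, while the keratin KRT8 was at close levels (532 and 599 CPM) and KRT18 was higher in PA-1 (335 and 266 CPM). In SK-OV-3 with BAY-850 the sum of the SK-OV-3 markers was 2888 to 3352 CPM and the pluripotency sum 78.6 to 81.6 CPM, the latter through DNMT3B (31.5 to 70.6 CPM), with POU5F1 at 6.74 and 8.16 CPM and the other 5 each under 1 CPM. The part of these values in the results was not tested. Markers of endothelial cells, the usual responders to VEGF, summed to 159 to 170.0 CPM in PA-1 with DMSO, where 7 of 10 averaged at least 1 CPM and 2 were at 0, and to 8.38 to 9.10 CPM in SK-OV-3. KDR was the largest part of that sum in PA-1, at a mean of 64.7 CPM. Blood markers stayed under 1 CPM in sum in every library, with a highest value of 0.734 CPM.

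For 8 of the 10 genes, all except VEGFA and NRP1, windows from 250 bases before to 50 after a transcription start were matched in RefSeq (GRCh38.p14), 13 windows in all, some of which overlap. HIF binds the letters ACGTG or GCGTG. Searched on both strands, ACGTG was in 3 of the 13 windows (ANGPTL4 and EDN1) and in 21.4% of 35116 windows of all genes, and GCGTG was in 8 of 13 (ADM, CXCR4, EDN1, PGF, VEGFB and VEGFC) and in 36.5% of all. Either form was in 10 of 13 windows, against 48.4% of all, and no match lay within the E-box letters CACGTG. The letters TATAAA were in 4 of 13 windows, one each of ADM, ANGPTL4, CXCR4 and EDN1, and in 11.5% of all windows. The letters GGGCGG were in 10 of 13 windows and in 15786 of all 35116, and TGANTCA was in none of the 13 and in 7.71% of all. The shares over all windows were not matched for GC content, which was 42.7% to 84.7% in the 13 windows. These are matches of letters and not measured binding.

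The windows of ADM, ANGPTL4, CXCR4 and EDN1 that hold TATAAA are shown. These 4 genes had both kinds of match in 1 window, a HIF core and TATAAA. The choice also rested on the fold changes, since these genes include the largest increases and the decrease described below. A link between the matches and the responses was not tested. All stretches are 5′ to 3′ on the strand of the gene and lie before the start, with the HIF core (CACGT is ACGTG on the other strand) and TATAAA in capitals. For ADM, whose window lies in exons of a longer transcript in GENCODE release 29, only 30 bases around each match are shown.
ADM, chr11:10304962-10304991, plus strand: gcaggagcgcGCGTGgctgaggaaagaaag
ADM, chr11:10305033-10305062, plus strand: ccacccgtgcgctTATAAAgcacaggaacc
ANGPTL4, chr19:8363905-8364150, plus strand: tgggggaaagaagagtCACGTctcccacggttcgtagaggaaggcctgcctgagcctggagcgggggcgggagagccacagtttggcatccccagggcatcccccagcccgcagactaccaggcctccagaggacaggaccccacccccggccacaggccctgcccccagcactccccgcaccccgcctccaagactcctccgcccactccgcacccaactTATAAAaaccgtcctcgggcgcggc
CXCR4, chr2:136118166-136118279, minus strand: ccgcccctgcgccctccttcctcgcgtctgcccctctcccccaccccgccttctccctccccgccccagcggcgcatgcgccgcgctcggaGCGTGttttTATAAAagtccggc
EDN1, chr6:12290231-12290360, plus strand: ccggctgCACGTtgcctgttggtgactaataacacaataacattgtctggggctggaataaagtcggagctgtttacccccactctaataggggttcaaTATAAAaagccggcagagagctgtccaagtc
In CXCR4 the HIF core and TATAAA lie next to each other, while in ANGPTL4 they stand at opposite ends of the stretch. Counted from the start, GCGTG began at -39 and TATAAA at -30 in CXCR4, and the HIF core began at -234 and TATAAA at -29 in ANGPTL4. In ADM they began at -101 and -27, and in EDN1 at -123 and -31.

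All levels in CPM, above and below, are scaled between libraries by TMM factors (which set the bulk of genes equal). Replicates are given in the order 1, 2 and 3. A log2 fold change is from edgeR's quasi-likelihood fit within 1 line, and a gene is called where the adjusted p of that test is under 0.05. In bulk RNA, a smaller share of cells with a transcript and less of it per cell cannot be told apart. Of the 10 genes, 9 passed the filter on low counts in PA-1 (all but VEGFC) and 10 in SK-OV-3. CXCR4 passed in PA-1 only through the libraries with BAY-850, so its place among the genes tested there depended on the direction of its values.

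In PA-1, 5 of the 9 genes tested were called, all higher with BAY-850: CXCR4, ANGPTL4, VEGFA, ADM and NRP2. Over all 15212 genes tested 7.13% were called, 4.65% higher and 2.48% lower. Treated and vehicle libraries were apart, with no overlap, for these 5 and, lower, for PGF (27.5% of all genes had no overlap). In SK-OV-3, 5 of 10 were called: VEGFA, VEGFB, ADM and ANGPTL4 higher and EDN1 lower. There 20.4% of 15348 genes were called, 10.8% higher and 9.56% lower, and 5 of the 10 genes (VEGFA, VEGFB, ANGPTL4, EDN1 and NRP2) had no overlap, against 38.6% of all. Since the genes were chosen with these contrasts known, nothing is read from the counts themselves. The median log2 fold change of the genes tested was 0.37 in PA-1 and 0.31 in SK-OV-3, beside -0.0019 and -0.0091 over all genes.

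**Figure D1:**
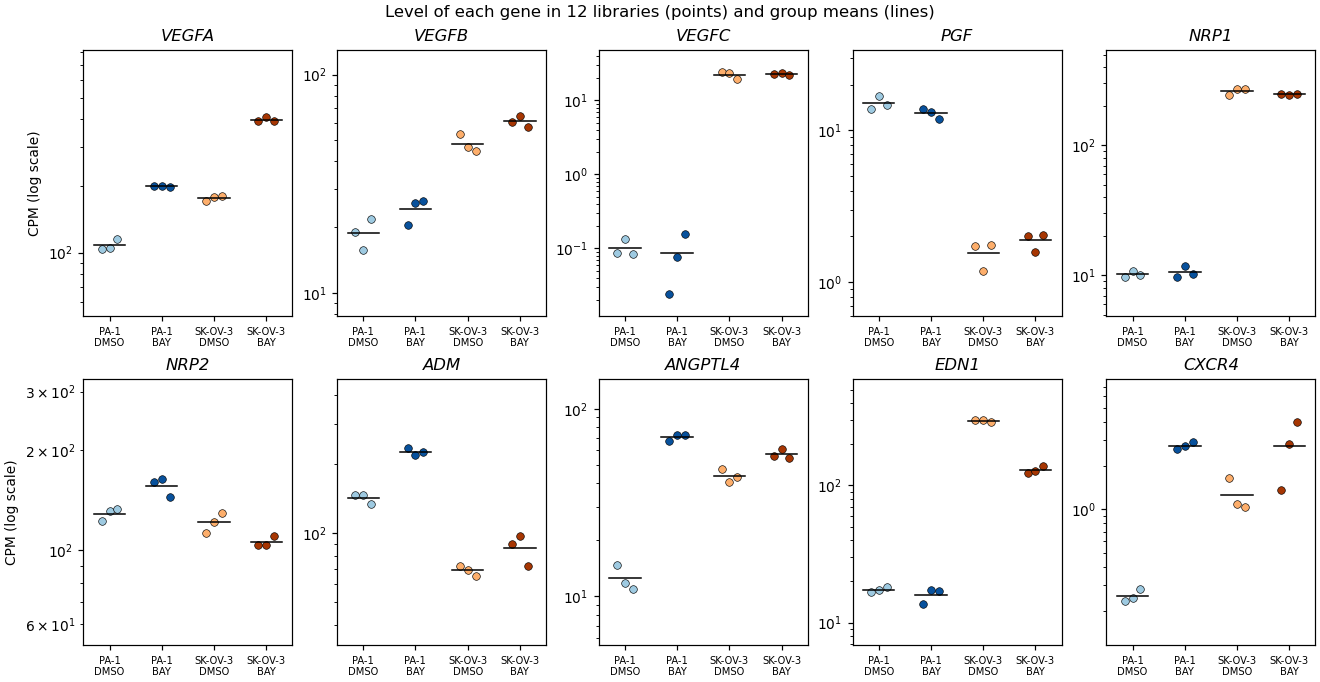
Level of each of the 10 genes in CPM (vertical axis, log scale, a separate range for each gene) in the 12 libraries, with 3 points per group and a line at the group mean. VEGFA was higher with BAY-850 in both lines, EDN1 was lower in SK-OV-3, and VEGFC, NRP1 and EDN1 differed most between the lines.

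VEGFA (chromosome 6, 43770184 to 43786487, plus strand, GRCh38) was higher with BAY-850 in both lines. In PA-1 it was at 103, 105 and 115 CPM with DMSO and at 199, 200.5 and 198 CPM with BAY-850. SK-OV-3 cells had 170.2, 178 and 181 CPM with DMSO and at 391, 411 and 394 CPM with BAY-850. Neither line had an overlap, and the lowest treated library of PA-1 was above the highest vehicle library of SK-OV-3. The fold change was 1.85 in PA-1 (log2 0.89, standard error 0.059) and 2.28 in SK-OV-3 (log2 1.19, standard error 0.048, and 1.19 without the library that stood apart). The counts do not separate the splice forms of VEGFA, which differ in how tightly the protein binds the matrix.

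The other VEGF ligands moved less or not at all. VEGFB (chromosome 11, 64234538 to 64238793, plus strand), a ligand of FLT1 linked to fatty acid handling, was at 18.9, 15.6 and 21.9 CPM in PA-1 with DMSO and at 20.5, 25.9 and 26.5 CPM with BAY-850, with an overlap and no call, though it was called without DMSO replicate 3 (log2 0.50) or BAY-850 replicate 1 (log2 0.48). In SK-OV-3 it was at 53.6, 46.5 and 44.7 CPM with DMSO and at 60.4, 64.8 and 57.7 CPM with BAY-850, all higher. Its log2 fold changes were close in size, 0.37 (standard error 0.12) in PA-1 and 0.35 (standard error 0.080) in SK-OV-3. The call in SK-OV-3 was lost without DMSO replicate 2 or DMSO replicate 3, with log2 fold changes of 0.32 and 0.30, and the value was 0.38 without the library that stood apart.

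PGF (chromosome 14, 74941834 to 74955784, minus strand), placental growth factor, was at 13.7, 16.9 and 14.7 CPM in PA-1 with DMSO and at 13.7, 13.2 and 11.9 CPM with BAY-850, and was not called. Its highest treated value lay just under its lowest vehicle value. SK-OV-3 cells had 1.74, 1.19 and 1.76 CPM with DMSO and at 2.02, 1.59 and 2.03 CPM with BAY-850, with an overlap. VEGFC (chromosome 4, 176683538 to 176792727, minus strand), the growth factor of lymphatic vessels, had 1 to 6 counts in each PA-1 library, too few for a test or a fold change. In SK-OV-3 it was at 24.1, 23.3 and 19.5 CPM with DMSO and at 22.9, 23.4 and 22.0 CPM with BAY-850, and the treated values lay within the vehicle range. Its log2 fold change there was 0.039 with a 95% interval from -0.18 to 0.26.

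ADM (chromosome 11, 10304680 to 10307397, plus strand) was called higher with BAY-850 in both lines. The step was smaller in SK-OV-3, but the difference between the lines in this response was not called. In PA-1 it was at 147, 148 and 135 CPM with DMSO and at 236, 219 and 227 CPM with BAY-850, a 1.59-fold difference (log2 0.67, standard error 0.059) with no overlap. In SK-OV-3 it was at 72.2, 69.4 and 65.2 CPM with DMSO and at 89.5, 97.2 and 71.8 CPM with BAY-850. Replicate 3, the library that stood apart, lay inside the vehicle range, and the other two treated libraries lay above it. The log2 fold change was 0.33 (standard error 0.092), or 0.44 (standard error 0.066) without that library. The call was lost when DMSO replicate 2 or 3 or BAY-850 replicate 1 or 2 was left out, with log2 fold changes from 0.25 to 0.34.

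ANGPTL4 (chromosome 19, 8363289 to 8374373, plus strand), a secreted inhibitor of lipoprotein lipase, was called higher with BAY-850 in both lines, with a far larger step in PA-1. In PA-1 it was at 14.6, 11.8 and 11.0 CPM with DMSO and at 67.5, 72.1 and 72.2 CPM with BAY-850, a 5.67-fold difference (log2 2.50, standard error 0.091). In SK-OV-3 ANGPTL4 was at 48.0, 40.8 and 43.2 CPM with DMSO and at 55.7, 60.9 and 54.7 CPM with BAY-850, a 1.31-fold difference (log2 0.39, standard error 0.077, and 0.41 without the library that stood apart). No library overlapped between treatments in either line, and the treated PA-1 libraries were above every SK-OV-3 library. ANGPTL4 overlaps the antisense gene RAB11B-AS1, and how the counting divided reads between the genes was not checked.

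CXCR4 (chromosome 2, 136114349 to 136118165, minus strand), the receptor of the chemokine CXCL12, was near the detection limit in PA-1 with DMSO, where it had 8, 11 and 10 counts. It was at 0.231, 0.244 and 0.283 CPM there and at 2.60, 2.72 and 2.90 CPM with BAY-850 (107, 107 and 110 counts), which is 3.42 on the log2 scale (standard error 0.33). In SK-OV-3 CXCR4 was at 1.64, 1.09 and 1.04 CPM with DMSO and at 1.35, 2.82 and 3.97 CPM with BAY-850. The treated libraries of SK-OV-3 were spread over a wide range (55, 119 and 213 counts), replicate 1 lay inside the vehicle range and the library that stood apart was the highest. The log2 fold change of 1.14 (standard error 0.42) was not called, and it was 0.73 (standard error 0.38) without that library and 1.46 without replicate 1, when it was called.

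EDN1 (chromosome 6, 12290363 to 12297194, plus strand) went the other way in SK-OV-3. It was at 299, 299.5 and 289 CPM with DMSO and at 123, 128 and 139 CPM with BAY-850, 2.26-fold lower (log2 -1.18, standard error 0.061) with no overlap. In PA-1 it was at 16.6, 17.3 and 18.1 CPM with DMSO and at 13.7, 17.3 and 17.0 CPM with BAY-850, which overlapped, and the log2 difference was -0.12 (standard error 0.10). Without the library that stood apart the value in SK-OV-3 was -1.24. EDN1 was the one gene of the 10 with a call toward lower values in either line.

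The co-receptors differed little between treatments. NRP1 (chromosome 10, 33177492 to 33336262, minus strand), which binds VEGFA and class 3 semaphorins, was at 9.78, 10.8 and 10.1 CPM in PA-1 with DMSO and at 9.73, 11.8 and 10.2 CPM with BAY-850. In SK-OV-3 NRP1 was at 245, 271 and 271 CPM with DMSO and at 249, 244 and 250.4 CPM with BAY-850. The log2 fold changes were 0.054 (95% interval -0.20 to 0.30) and -0.066 (95% interval -0.19 to 0.053), so NRP1 was not called in either line. Without the library that stood apart, the log2 fold changes in SK-OV-3 were -0.087 for NRP1, 0.051 for VEGFC and 0.20 for PGF. NRP2 (chromosome 2, 205681990 to 205798133, plus strand), which also binds VEGFC, was at 123, 131 and 133 CPM in PA-1 with DMSO and at 160.5, 164 and 144 CPM with BAY-850, with no overlap and a log2 difference of 0.28 (standard error 0.062). In SK-OV-3 NRP2 was at 113, 122 and 129 CPM with DMSO and at 104, 104 and 111 CPM with BAY-850, again with no overlap but in the other direction (log2 -0.18, standard error 0.065), and was not called. The call in PA-1 was lost with scaling by library size only (log2 0.24) and without DMSO replicate 1 or 2 or BAY-850 replicate 1 or 2 (log2 0.24 to 0.29), while NRP2 in SK-OV-3 was called without the library that stood apart or without DMSO replicate 1 (log2 -0.22 in both cases).

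**Figure D2:**
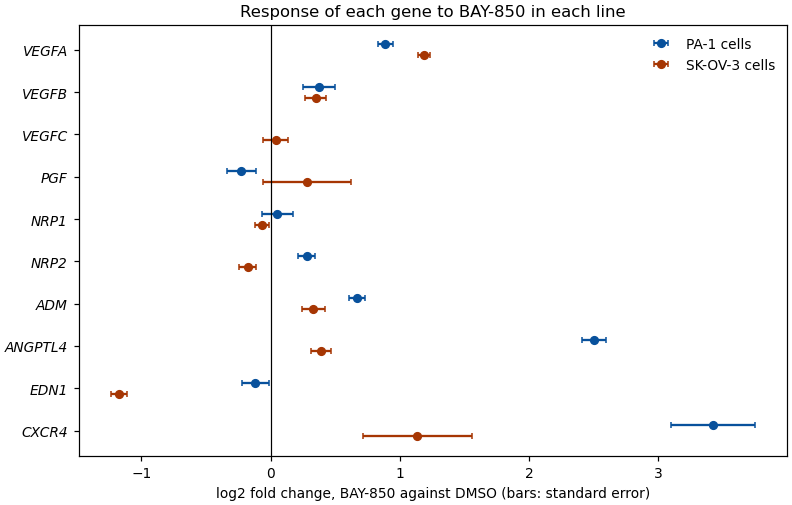
Log2 fold change of BAY-850 against DMSO (horizontal axis) with its standard error for each gene, in PA-1 (blue) and SK-OV-3 (brown); VEGFC was not tested in PA-1. ANGPTL4 and CXCR4 lie far to the right in PA-1 at 2.50 and 3.42, VEGFA lies at 0.89 and 1.19, and EDN1 lies at -1.18 in SK-OV-3.

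The difference between the responses of the lines was tested with an interaction term over all 12 libraries. It is built from the same contrasts that were known when the genes were chosen, so its p-values are not independent of the choice. Of the 10 genes 5 were called, 1 with a higher and 4 with a lower response in SK-OV-3, against 14.5% of all 16830 genes, 6.7% higher and 7.77% lower. The median difference over the 10 genes was -0.24, beside -0.020 over all genes. The response of VEGFA was larger in SK-OV-3 by 0.29 on the log2 scale (standard error 0.071, adjusted p = 0.0130). That of ANGPTL4 differed by -2.13 (standard error 0.13, adjusted p = 6.16e-08) and that of CXCR4 by -2.31 (standard error 0.56, adjusted p = 0.0128). For EDN1 the difference was -1.07 (standard error 0.11, adjusted p = 1.31e-05), and for NRP2, whose values went in opposite directions, -0.47 (standard error 0.090, adjusted p = 0.00280). CXCR4 missed the threshold with limma-voom (adjusted p = 0.0580). Without the SK-OV-3 library that stood apart these differences were 0.30 for VEGFA, -2.10 for ANGPTL4, -2.69 for CXCR4, -1.12 for EDN1 and -0.50 for NRP2, all called. For ADM the difference of -0.35 (95% interval -0.61 to -0.086, adjusted p = 0.0719) was not called, and it was -0.43 and called without BAY-850 replicate 2 of SK-OV-3. For VEGFB it was -0.036 (95% interval -0.39 to 0.32), which leaves room for differences in either direction.

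The difference between the lines under DMSO was not the contrast that chose the genes, but the DMSO libraries are the base of the fold changes that were known, so its tests are not fully independent of the choice. Of the 10 genes 9 were called between SK-OV-3 and PA-1, 7 higher and 2 lower in SK-OV-3, with 9 of 10 not overlapping. The 7 include VEGFC and CXCR4, whose direction was fixed by the filter on low counts, and these counts and the median below include both. Among all 16070 genes tested, 80.3% were called (40.1% higher and 40.2% lower) and 82.3% did not overlap, so a call between these lines is common. The median log2 difference was 1.59 over the 10 genes and 0.0019 over all genes. The largest differences were those of VEGFC, NRP1 and EDN1, all higher in SK-OV-3. VEGFC was at 0.0868, 0.133 and 0.0849 CPM in PA-1 and at 19.5 to 24.1 CPM in SK-OV-3, with a log2 difference of 7.70 (95% interval 7.21 to 8.18, adjusted p = 5.23e-12) that rests on 12 counts in the 3 PA-1 libraries together. It passed the filter through SK-OV-3, so its direction was fixed by the filter and the p is not read as support. NRP1 differed 25.6-fold (log2 4.68, standard error 0.073, adjusted p = 2.88e-14) and EDN1 17.0-fold (log2 4.09, standard error 0.061, adjusted p = 2.05e-14).

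Smaller differences in the same direction were those of ANGPTL4, VEGFB, VEGFA and CXCR4. ANGPTL4 was 3.52-fold higher in SK-OV-3 under DMSO (log2 1.82, standard error 0.11, adjusted p = 7.60e-09), VEGFB 2.57-fold (log2 1.36, standard error 0.12, adjusted p = 1.96e-07) and VEGFA 1.63-fold (log2 0.71, standard error 0.059, adjusted p = 1.69e-07). CXCR4 differed by 2.29 on the log2 scale (standard error 0.44, adjusted p = 3.85e-04), with 8 to 11 counts in the PA-1 libraries. Like VEGFC, it passed the filter through SK-OV-3, where it was high, so its direction was fixed by the filter and the p is not read as support. PGF was 9.67-fold lower in SK-OV-3 (log2 -3.27, standard error 0.18, adjusted p = 3.23e-09) and ADM 2.08-fold lower (log2 -1.06, standard error 0.063, adjusted p = 6.00e-09). NRP2 was at close levels in both lines, with a log2 difference of -0.092 (95% interval -0.23 to 0.045, adjusted p = 0.196), though it was called with the trend on gene length removed (adjusted p = 0.0108). All these adjusted p-values are from edgeR's quasi-likelihood test.

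**Figure D3:**
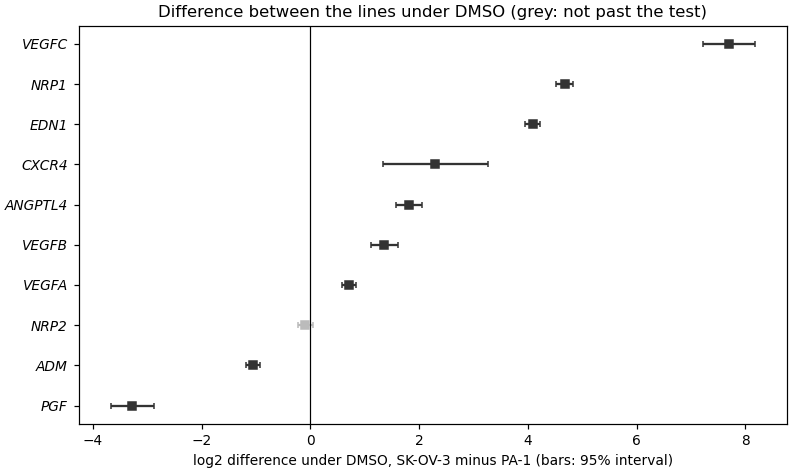
Log2 difference in level under DMSO, SK-OV-3 minus PA-1 (horizontal axis), with 95% intervals, for each of the 10 genes in order of size. VEGFC lies at 7.70 and PGF at -3.27, and NRP2, in grey, is the gene that did not pass the test.

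Levels of different genes were compared per kilobase of the longest coding transcript in GENCODE. In PA-1 with DMSO, ADM led at 75.8 CPM per kilobase (SD 3.95, n = 3), followed by VEGFA at 30.5 (SD 1.85) and NRP2 at 19.4 (SD 0.826). VEGFB was next at 13.6, and EDN1 at 8.54, PGF at 7.85 and ANGPTL4 at 6.64 CPM per kilobase followed, where the ranges of EDN1 and PGF and those of PGF and ANGPTL4 overlapped. NRP1 at 1.73, CXCR4 at 0.133 and VEGFC at 0.0492 CPM per kilobase were lowest. With BAY-850 ANGPTL4 took rank 3 in PA-1, at 37.6 CPM per kilobase (SD 1.45), behind ADM at 120.3 and VEGFA at 56.3.

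In SK-OV-3 with DMSO the order was another one. EDN1 led at 146 CPM per kilobase (SD 2.86), ahead of VEGFA at 49.9 (SD 1.58) and NRP1 at 44.6 (SD 2.60), and the ranges of ADM at 36.5 and VEGFB at 35.0 overlapped. ANGPTL4 at 23.4, NRP2 at 18.2 and VEGFC at 10.8 CPM per kilobase came next, and PGF at 0.811 and CXCR4 at 0.661 overlapped at the end. With BAY-850 VEGFA was at 113 CPM per kilobase (SD 2.99) and EDN1 at 63.9 (SD 3.86). The place of VEGFA depends on the length used. The union of its exons is 14431 bases, against 3535 for the longest coding transcript. By exon union VEGFA took rank 5 in PA-1 and rank 6 in SK-OV-3 with DMSO. It took rank 4 in both lines with BAY-850, where EDN1 led in SK-OV-3. Other places moved too. With DMSO, VEGFB took rank 2 in both lines and NRP1 rank 4 in SK-OV-3. ANGPTL4 took rank 2 in PA-1 with BAY-850.

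Most receptors of these factors differed between the lines under DMSO, where 80.3% of all genes were called, and were not called with BAY-850. KDR, the main signalling receptor of VEGFA, was at a mean of 64.7 CPM (SD 3.95, n = 3) in PA-1 and 2.59 CPM (SD 0.530) in SK-OV-3 with DMSO, and KDR and FLT4 were called lower in SK-OV-3, as were 40.2% of all genes. FLT1 was at 2.60 CPM in PA-1 and at 0 in 2 of 3 SK-OV-3 libraries with DMSO, and it was tested through PA-1 alone, where it was high. With BAY-850, none of 3 in PA-1 and none of 2 tested in SK-OV-3 was called, against 7.13% and 20.4% of all genes. FLT1 was at 2.60 and 3.82 CPM in PA-1 (log2 0.56, standard error 0.19, edgeR adjusted p = 0.0949). Under DMSO the co-receptor NRP1 was higher in SK-OV-3, and KDR and FLT4 were higher in PA-1. FLT1 is left out here, since its direction was fixed by the filter, and NRP2 was at close levels in both lines. With 80.3% of all genes called between the lines, nothing is read from these directions.

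For endothelin, the ligand and its receptors also differed between the lines under DMSO, where 80.3% of all genes were called. EDNRB, the receptor that binds all endothelins alike, was at 374 CPM (SD 16.8) in PA-1 with DMSO and 0.165 CPM (SD 0.109) in SK-OV-3. EDNRA was at 4.45 CPM (SD 0.513) in SK-OV-3 and at 0.0193 CPM in PA-1 with DMSO. Each receptor passed the filter on low counts only through the line where it was high, so its direction was fixed by the filter. ECE1, the enzyme that cuts the endothelin precursor, was called higher with BAY-850 in both lines, from 136 to 179 CPM in PA-1 (log2 0.40) and from 169 to 212 CPM in SK-OV-3 (log2 0.34). In SK-OV-3, then, EDN1 was lower and ECE1 higher with BAY-850. Of the 6 endothelin partners, 1 of 3 tested was called in PA-1 and 1 of 4 in SK-OV-3, in both cases ECE1. Over all genes, 7.13% were called in PA-1 and 20.4% in SK-OV-3.

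Of the adrenomedullin receptor genes, CALCRL and RAMP2 also differed between the lines under DMSO, where 80.3% of all genes were called. RAMP1 and RAMP3 had too few counts for a test. CALCRL, the receptor, was at 3.29 CPM in PA-1 and 0.398 CPM in SK-OV-3 with DMSO, and its partner RAMP2 was at 14.8 and 0.659 CPM. ADM2, a related peptide that acts on the same receptors, was called higher with BAY-850 in SK-OV-3, from 8.83 CPM (SD 1.42) to 23.7 CPM (SD 2.13), or 1.44 on the log2 scale (standard error 0.14), and was at 38.5 and 40.3 CPM in PA-1. It was the one of 3 adrenomedullin partners tested that was called in SK-OV-3 (20.4% of all genes were), and none was called in PA-1 (7.13%). CXCL12, the ligand of CXCR4, was at 0 or near it in all groups (highest library 0.181 CPM), and ACKR3, its second receptor, was not called in either line.

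**Figure D4:**
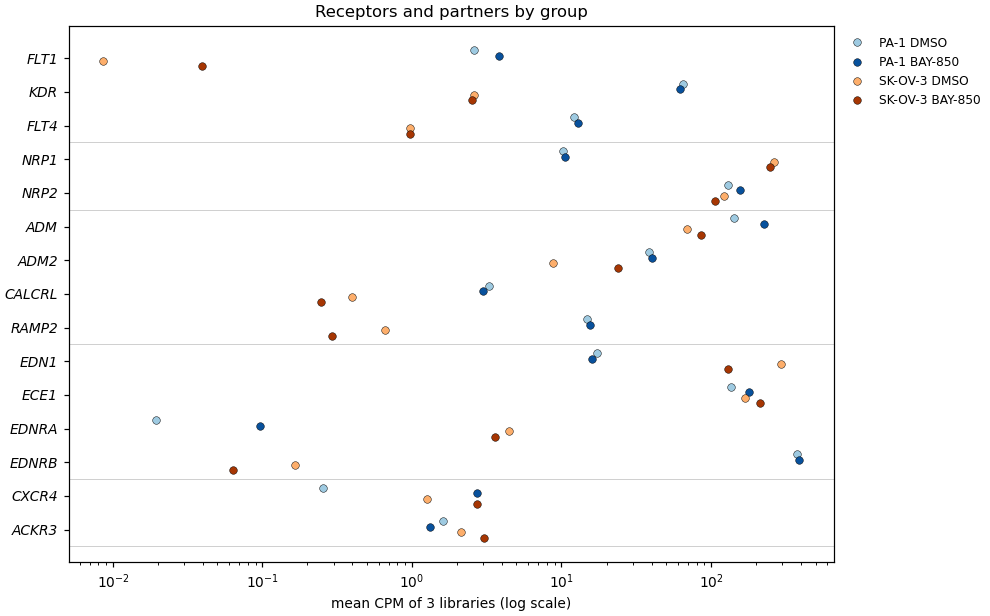
Mean CPM of 3 libraries (horizontal axis, log scale) of receptors, co-receptors and partners in the 4 groups, 1 colour per group; values are compared between groups within a gene, not between genes. EDNRB and KDR sit at 374 and 64.7 CPM in PA-1 with DMSO against 0.165 and 2.59 CPM in SK-OV-3, and EDN1 and NRP1 are the reverse.

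The counts of calls with BAY-850 in the next lists stand beside 7.13% of all genes called in PA-1 and 20.4% in SK-OV-3. Among the relatives of the VEGF ligands (VEGFD, PDGFA, PDGFB, PDGFC and PDGFD), 1 of 4 tested was called in SK-OV-3 and none of 3 in PA-1. The gene called was PDGFC, at a log2 fold change of -0.19 (standard error 0.053). Of 12 class 3 semaphorins and plexins, which share the neuropilins with VEGF, PLXND1 was called higher in PA-1 (log2 0.30, standard error 0.057). In SK-OV-3, SEMA3B was called higher (log2 1.08, standard error 0.096) and SEMA3C lower (159 to 123 CPM, log2 -0.36, standard error 0.080) among 10 tested. Of 12 angiopoietins and angiopoietin-like genes, none of 6 tested in PA-1 and none of 4 in SK-OV-3 was called, while ANGPTL4 was called in both. The nearest were ANGPT2 in SK-OV-3, at 1.83 and 3.74 CPM (edgeR adjusted p = 0.0788), and ANGPTL2 in PA-1, at 8.22 and 10.9 CPM (edgeR adjusted p = 0.0808). By the interaction test 1 of 7 was called, against 14.5% of all genes. It was ANGPT1 (log2 -2.86, standard error 0.62), at 31.5 and 30.1 CPM in PA-1 and 0.355 and 0.0457 CPM in SK-OV-3. ANGPT1 passed the filter through PA-1, where it was high, and had too few counts in SK-OV-3 for a test there. The call is therefore not read as support.

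A list of 20 other hypoxia-inducible genes, chosen with these results known, was set beside the group. In PA-1, 19 of 20 were called higher (4.65% of all genes) and none lower, with a median log2 fold change of 0.88, and in SK-OV-3 13 were called higher (10.8% of all genes) and 1 lower (9.56%), with a median of 0.42. ANKRD37, an ankyrin repeat protein induced by HIF, rose from 11.5 to 100.5 CPM in PA-1 (log2 3.13, standard error 0.081), and HILPDA, a lipid droplet protein, from 35.8 to 193 CPM (log2 2.43, standard error 0.060). Neither was called in SK-OV-3, at 5.85 and 6.91 CPM for ANKRD37 and 8.03 and 8.72 CPM for HILPDA. STC2, a secreted glycoprotein, rose more in SK-OV-3 (log2 1.58, standard error 0.092) than in PA-1 (log2 0.71, standard error 0.069), as VEGFA did. By the interaction test, 3 of the 20 (CA9, BNIP3 and STC2) had a larger response in SK-OV-3 (6.7% of all genes) and 12 a smaller one (7.77%).

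**Figure D5:**
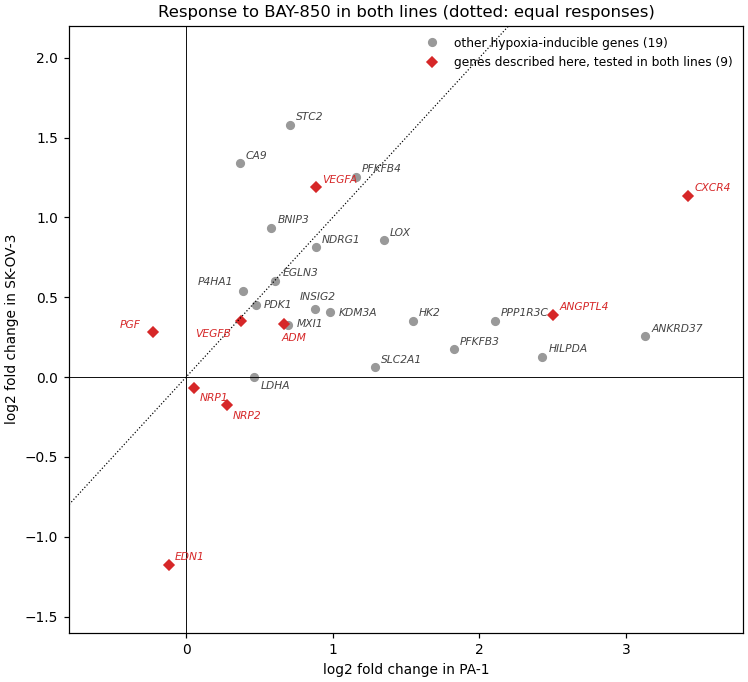
Log2 fold change with BAY-850 in PA-1 (horizontal axis) against that in SK-OV-3 (vertical axis) for 9 genes of the group (red diamonds) and 19 of the 20 other hypoxia-inducible genes (grey circles), with a dotted line where both are equal. CXCR4 and ANGPTL4 lie with ANKRD37 and HILPDA on the right, and EDN1 lies lowest. VEGFA lies above the line, as do PGF and, among the grey circles, STC2, CA9, BNIP3, PFKFB4 and P4HA1.

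Likeness in pattern was measured as Pearson's r of log2 CPM over the 12 libraries, after each line was centred on its own mean, among 14092 genes. The points share libraries and the treatment, so r is a description. The genes most like VEGFA were BNIP3 (r = 0.985), P4HA1 (0.985), INSIG1 (0.983), DDIT4 (0.982) and PRICKLE3 (0.978). Among the 5 most like ADM were SLC16A3 (0.976), PGAM1 (0.974), P4HA2 (0.967) and INSIG2 (0.953). Within the group, ADM and ANGPTL4 were closest to each other of the pairs with ADM or VEGFA (r = 0.903), VEGFA and ADM had r = 0.812, and EDN1 ran against VEGFA (r = -0.833).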

How the data were processed

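RNA was measured in 12 libraries of PA-1 and SK-OV-3. The authors deposited RSEM expected counts per gene symbol, not normalized. The submitters' processing notes name RSEM 1.2.15, Bowtie2 2.1.0 and hg38. The annotation used is not given in the sources used here. By the labels, mRNA was selected with oligo-dT and libraries kept the strand; the design text names depletion of ribosomal RNA instead. Ribosomal RNA genes took 7.94% to 16.9% of counts.

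Expected counts were rounded. TMM factors, the low-count filter and the quasi-likelihood test came from edgeR 4.0.16 (R 4.3.3), without a replicate block, with Benjamini-Hochberg adjustment over all genes tested. The standard error is the log2 fold change divided by the square root of F. Positions and lengths come from GENCODE release 29 (GRCh38), matched for 24659 of 26475 symbols, and promoter windows from RefSeq (GRCh38.p14). Alternatives were DESeq2 1.42.0, limma-voom 3.58.1, edgeR's likelihood ratio test, other scalings, filters, samples and trends, and leaving out libraries. P-values set a difference between groups against the spread between replicates and do not extend to other cell lines. Counts limit precision below 1 CPM.

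The genes and lists were chosen with earlier results of these data known. The named genes are the 10 genes, members of the fixed lists (VEGF relatives and receptors, semaphorins and plexins, adrenomedullin, endothelin and CXCR4 partners, angiopoietins, hypoxia-inducible genes, HIF subunits and oxygen sensors, markers), and the 5 genes most like VEGFA and ADM with a mean of at least 1 CPM. The values of 2 of these genes are not reported here.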

Additional observations from a re-analysis of the deposited data

Results flagged for a closer look

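Responses to BAY-850 that differed between the lines by the interaction test (log2 fold change in SK-OV-3 minus that in PA-1, edgeR's quasi-likelihood test) were those of 5 genes, and none of these differences is independent of the choice of the genes. VEGFA differed by 0.29, with a larger increase in SK-OV-3 and every treated library above every vehicle library in both lines. ANGPTL4 differed by -2.13 and CXCR4 by -2.31, with the larger increases in PA-1. EDN1 differed by -1.07, with lower values in all SK-OV-3 libraries with BAY-850 and overlapping values in PA-1. NRP2 differed by -0.47, with all treated libraries higher in PA-1 and all lower in SK-OV-3.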

How the results depend on the processing

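Of 746 recomputed log2 fold changes of the 10 genes, 702 kept their direction and their side of the threshold, 12 lost a call, 22 gained one and 10 changed direction. With 1 library left out at a time, the number of the 10 genes called ranged from 4 to 6 in PA-1, from 3 to 6 in SK-OV-3, from 5 to 6 for the interaction and was 9 throughout between the lines. The 3 in SK-OV-3 came without DMSO replicate 2 or 3, when VEGFB and ADM were lost. Other settings gave 4 to 6, 5 to 7, 4 to 6 and 7 to 10. Direction changed only for values that were not called, NRP1 in PA-1, VEGFC in SK-OV-3, and VEGFB (-0.036) and VEGFC (0.32) in the interaction, and the cause was not tested. With 1 library left out, NRP1 in PA-1 ranged from -0.029 to 0.11, VEGFC in SK-OV-3 from -0.047 to 0.10, and in the interaction VEGFC ranged from -0.13 to 1.05 and VEGFB from -0.15 to 0.085. VEGFB in the interaction was 0.017 with library size only and 0.016 with the GC trend removed. VEGFB in PA-1 gained a call in 6 settings, CXCR4 and NRP2 in SK-OV-3 in 4 each, ADM in the interaction in 7. DESeq2 gave no adjusted p for CXCR4 in PA-1, and CXCR4 there did not pass a minimum of 10 counts in every library.

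Over all genes in PA-1, 1085 calls became 1737 with DESeq2, 466 with library size only, 562 with the GC trend removed, 683 with all 12 libraries in one fit and 340 to 1228 with 1 library left out (489 and 340 without DMSO replicates 1 and 2, 344 without BAY-850 replicate 2). In SK-OV-3, 3130 became 1781 and 1983 without DMSO replicates 2 and 3. The replicate numbers did not pair the samples (correlations of same-numbered deviations -0.032 to 0.044), and the replicate block gave 5, 5, 6 and 9 of the 10 genes called in PA-1, in SK-OV-3, for the interaction and between the lines, and changed 1 call, that of ADM in the interaction.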

Other observations

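Among the HIF subunits and oxygen sensors, EPAS1, which encodes HIF-2α, was at a mean of 58.3 CPM in SK-OV-3 with DMSO and at a mean of 134 CPM with BAY-850 (log2 1.21, standard error 0.057), while in PA-1 it was at 31.1 and 35.4 CPM and was not called. EGLN1, an oxygen sensor that marks HIF for destruction and is itself induced by it, was called higher in PA-1 (82.2 to 161 CPM, log2 0.97, standard error 0.056) and not in SK-OV-3. HIF1A was not called in either line. In PA-1, 2 of 9 tested genes of this list were called, both higher (4.65% of all genes were). In SK-OV-3, 3 of 9 were called higher (10.8% of all genes) and 1, ARNT2, lower (9.56%). EGLN3 also stood in the list of hypoxia-inducible genes.

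Markers of fibroblasts and pericytes summed to 53.6 to 64.8 CPM in PA-1 and 12.3 to 12.9 CPM in SK-OV-3 with DMSO, and to 52.4 to 56.4 and 4.81 to 7.67 CPM with BAY-850.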
